A study of Homo sapiens with 6 samples.

Results

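The histone genes of the HIST clusters were the 70 symbols starting with HIST1H, HIST2H, HIST3H or HIST4H, out of 23617 symbols in the MDA-MB-231 table. Members were chosen by name alone, with no filter on their level. They fell into 6 genes for the linker histone H1, 17 for H2A, 20 for H2B, 13 for H3 and 14 for H4. The 56 HIST1 members lay on chromosome 6 between positions 25726291 and 27861669 of hg19. The 10 HIST2 and 3 HIST3 members lay on chromosome 1, and HIST4H4 lay alone on chromosome 12. RefSeq listed 3 of the 70 as non-coding (HIST1H2APS1, HIST2H2BA and HIST2H2BC).

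RNA was sequenced from MDA-MB-231, a human breast cancer line, and from HMLER, human mammary cells transformed in culture. Untreated cells were set against cells given decitabine (DAC), a cytidine analog that blocks DNA methyltransferases, every day at 10 µM and collected at 72 h. MDA-MB-231 had 1 library per condition and HMLER had 2, and each library was a pool of independent extractions. The untreated MDA-MB-231 library carries MDA-MB-231 in its title but MDA-MB-232 in its cell line label, and was used under its title. The HMLER table has each condition as a single FPKM that merges the libraries, and lists only transcripts that rose after DAC, so it has no replicate spread and shows no falls. Its lowest DAC/untreated ratio was 2.001 and its lowest DAC value 1.003 FPKM. A gene that is not listed may therefore still have risen in HMLER, by less or at a lower level. FPKM is the number of fragments divided by the length of the transcript and the size of the library. With 1 library per condition in MDA-MB-231, no p-value is given and no difference has a replicate check.

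Each nucleosome wraps DNA around H2A, H2B, H3 and H4, and H1 binds the DNA between nucleosomes. The genes of these clusters are mostly short, without introns and active in S phase, when new DNA is packed. Their mRNA usually ends just after a conserved stem-loop, bound by the protein SLBP, in place of a poly(A) tail. Some members also give polyadenylated mRNA that runs past the stem-loop. The libraries here were made from polyA RNA, so a change in the amount of a histone mRNA and a change in the share that is polyadenylated cannot be told apart. Nor can fewer cells in S phase and less mRNA per cell be told apart in bulk RNA.

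The stem-loop was searched in GRCh37, the assembly of hg19, within 150 bases after the annotated stop codon. It was found in all 62 members that had an annotated stop codon in GENCODE, against 0.359% of 20042 protein-coding genes. The stem-loops of 6 members with more fragments after DAC and of 2 members that fell, on which the results below turn, are printed 5′ to 3′ on the strand of the gene with the stem-loop in capitals.
HIST1H2BC, chr6:26123700-26123715: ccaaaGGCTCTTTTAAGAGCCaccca
HIST1H2BJ, chr6:27100100-27100115: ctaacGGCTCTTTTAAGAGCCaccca
HIST1H2BK, chr6:27114145-27114160: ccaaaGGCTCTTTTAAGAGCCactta
HIST1H2BD, chr6:26158815-26158830: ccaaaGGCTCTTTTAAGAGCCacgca
HIST1H4H, chr6:26285359-26285374: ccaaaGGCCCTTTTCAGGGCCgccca
HIST2H2BE, chr1:149857738-149857753: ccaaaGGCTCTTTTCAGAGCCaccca
HIST1H4C, chr6:26104545-26104560: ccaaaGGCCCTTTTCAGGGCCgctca
HIST2H2AC, chr1:149858941-149858956: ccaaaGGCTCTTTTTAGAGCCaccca
HIST1H2BC, HIST1H2BJ, HIST1H2BK and HIST1H2BD shared the form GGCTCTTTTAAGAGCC, which 9 of the 62 members carried. The commonest form, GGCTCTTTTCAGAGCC, was carried by 36. HIST1H4H, which rose, and HIST1H4C, which fell, had the same 16 letters.

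H2A and H2B genes often lie back to back, with a short shared stretch between their starts. That stretch is printed below for the 4 pairs whose H2B gene gained the most fragments, on the forward strand, with the H2B gene to its left and the H2A gene to its right. Capitals mark CCAAT and TATAAA, the CCAAT box and TATA box of histone promoters, on either strand (ATTGG and TTTATA on the other). Where a TTTATA and a TATAAA overlap, both are in capitals.
HIST1H2BC and HIST1H2AC, chr6:26124133-26124372: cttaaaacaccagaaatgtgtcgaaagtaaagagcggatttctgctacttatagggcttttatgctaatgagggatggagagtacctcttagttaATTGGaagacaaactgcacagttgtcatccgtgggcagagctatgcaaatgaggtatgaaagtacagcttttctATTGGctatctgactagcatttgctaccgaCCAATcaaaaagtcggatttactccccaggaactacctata
HIST1H2BJ and HIST1H2AG, chr6:27100576-27100816: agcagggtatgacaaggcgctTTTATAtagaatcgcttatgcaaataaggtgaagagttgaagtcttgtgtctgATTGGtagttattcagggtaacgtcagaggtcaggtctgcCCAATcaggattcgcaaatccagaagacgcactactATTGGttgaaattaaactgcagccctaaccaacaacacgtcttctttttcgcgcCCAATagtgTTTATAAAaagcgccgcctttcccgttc
HIST1H2BK and HIST1H2AH, chr6:27114638-27114860: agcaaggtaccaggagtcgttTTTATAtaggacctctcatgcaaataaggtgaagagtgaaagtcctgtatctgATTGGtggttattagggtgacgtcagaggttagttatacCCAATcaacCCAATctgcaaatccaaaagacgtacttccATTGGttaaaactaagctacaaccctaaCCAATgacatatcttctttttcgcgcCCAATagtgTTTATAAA
HIST2H2BE and HIST2H2AC, chr1:149858233-149858524: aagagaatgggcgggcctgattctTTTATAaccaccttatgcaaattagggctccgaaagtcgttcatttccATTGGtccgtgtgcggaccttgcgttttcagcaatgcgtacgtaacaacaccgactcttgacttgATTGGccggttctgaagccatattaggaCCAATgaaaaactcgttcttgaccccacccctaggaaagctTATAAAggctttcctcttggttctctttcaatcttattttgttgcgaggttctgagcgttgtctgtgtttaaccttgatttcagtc
The stretch between HIST1H2BC and HIST1H2AC held 3 CCAAT and 0 TATAAA, and 5 CpG sites. The 0 applies to the printed stretch only, since the RefSeq promoters of 300 bases of both genes held TATAAA. The stretch between HIST1H2BJ and HIST1H2AG held 4 CCAAT, 3 TATAAA and 11 CpG sites. The stretch between HIST1H2BK and HIST1H2AH held 6 CCAAT, 3 TATAAA and 5 CpG sites. The stretch between HIST2H2BE and HIST2H2AC, on chromosome 1, held 3 CCAAT, 2 TATAAA and 13 CpG sites. In RefSeq promoters of 300 bases (GRCh38.p14), CCAAT was present in 85.5% of the 62 members matched, against 34.6% of all 35116 promoters. TATAAA was present in 66.1% of those members against 11.5% of all promoters. The members' promoters held a median of 11 CpG sites (3 to 27) against 14 (0 to 77) over all promoters. The median was also 11 for the 18 members listed as higher in HMLER and for the 44 members matched and not listed.

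Low FPKM values in the MDA-MB-231 table fell on whole multiples of what 1 fragment is worth, so the fragments behind each value could be read back. Among transcripts alone in their locus and symbol, all 1714 low values of the untreated and 2113 of the DAC library (100% and 100%) lay within 0.1 of a whole fragment. The worth of 1 fragment was fitted by length on these same transcripts, from those near a whole number. The 100% is therefore partly built in. The values of HIST1H3D and HIST1H2AD, which share a locus, were not whole, since Cuffdiff divided the fragments of the locus between them. The depth this implies, after scaling by the authors, was close in the 2 libraries, with 1 fragment worth 1.01 times as much in the DAC library. In untreated cells 1 fragment on 500 bases was worth 0.0792 FPKM. Over the 11057 symbols that reached 1 FPKM in each library, the median DAC/untreated ratio was 0.908, a log2 shift of -0.14. Of the line's defining markers, VIM (3066 FPKM untreated, 1134 after DAC), CD44, CAV1 and AXL were high, and ESR1, PGR and CDH1 were at 0 untreated. Against the expected pattern of the line, SPARC was low, at 2.09 FPKM untreated, and ERBB2 (10.1 FPKM) and EPCAM (7.90 FPKM) were detected. Intervals in brackets below are exact 95% Clopper-Pearson intervals of a ratio from its fragments. They cover counting error only, since copies made by PCR are counted as separate fragments.

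The 70 members together held 5668 fragments in untreated and 7471 in DAC-treated MDA-MB-231. Of these members, 22 were at 0 in both libraries, and a count of 0 allows up to 3 fragments a library. Another 24 were above 0 but stayed under 1 FPKM in both libraries, with at most 9 fragments in a library. The remaining 24 reached 1 FPKM in at least 1 library. HIST1H1C and HIST1H2BK alone held 78.5% of all member fragments in untreated cells and 73.7% after DAC. Without these, the members held 1220 fragments in untreated cells and 1964 after DAC. HIST2H2AA3, HIST2H3C and HIST2H4B were listed at 0 at both of the loci the table gives each of them, and as near-identical copies their fragments may not have been assigned.

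A member was counted as higher or lower when its DAC/untreated FPKM ratio was above 2 or below 0.5 and it reached 1 FPKM in at least 1 library. Of the 24 members at this level, 5 were higher, or 20.8%, against 11.5% of the 12396 symbols at this level. HIST1H2BC, HIST1H2BD, HIST1H2BJ and HIST2H2BE, which code for H2B, and HIST1H4H, which codes for H4, were the 5. Another 6 were lower, or 25%, against 5.86% of all symbols. HIST1H1E, HIST1H2AH, HIST2H2AC, HIST1H4A, HIST1H4B and HIST1H4C were these 6. The median log2 change of the 24 was -0.04, beside -0.09 over all 12396 symbols. These counts depend on the filter. With 1 FPKM required in both libraries, 4 members were higher and 2 lower, and with 5 FPKM in at least 1 library, 4 were higher and 0 lower. H4 genes were called in both directions. For no member that was called did the bounds Cuffdiff gives the 2 libraries stand apart. No share over all symbols is given for this, so it does not set the members apart.

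**Figure D1:**
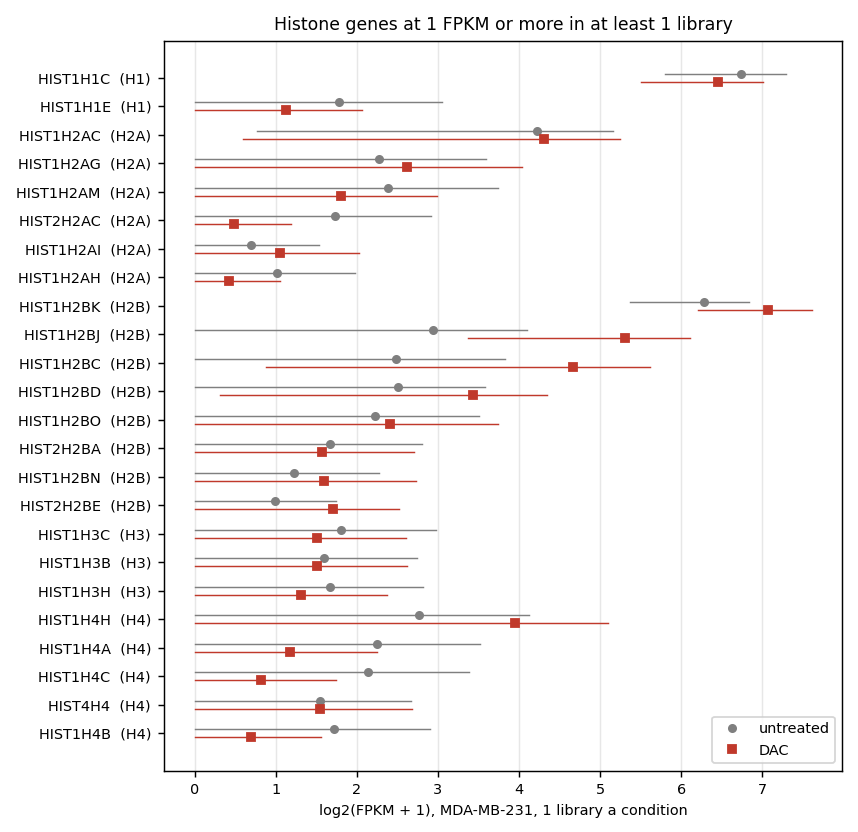
FPKM of the 24 histone genes that reached 1 FPKM in either MDA-MB-231 library, as log2(FPKM + 1), grouped by histone type. Circles are the untreated library, squares the DAC library, and lines the bounds Cuffdiff gives each value. The largest gaps to the right are HIST1H2BJ and HIST1H2BC, and the lines of the 2 libraries overlap for every gene.

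HIST1H2BK was the most expressed member after DAC. This H2B gene (NM_080593) had 76.8 FPKM in untreated cells and 133.1 after DAC in MDA-MB-231, from 2078 and 3579 fragments. Its ratio was 1.73 (1.64 to 1.83), under the 2-fold threshold. In HMLER it was listed with 38.2 FPKM untreated and 93.9 FPKM after DAC, a ratio of 2.46. Of the 18 members listed in HMLER, HIST1H2BK was the highest in both lines, before and after DAC. Its deposited model ends 8073 bases past the stem-loop in the genome and spans the locus of HIST1H4I, an H4 gene that itself had 2 fragments untreated and 1 after DAC.

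HIST1H2BJ (NM_021058) had the largest ratio among the members called in MDA-MB-231. It went from 6.69 to 38.6 FPKM, or from 79 to 453 fragments, a ratio of 5.77 (4.54 to 7.43). In HMLER it was listed at 3.76 FPKM untreated and 35.2 FPKM after DAC, a ratio of 9.36. HIST1H2BC (NM_003526) went from 4.61 to 24.3 FPKM in MDA-MB-231, or from 46 to 241 fragments, a ratio of 5.27 (3.83 to 7.39). In HMLER it was listed at 2.61 and 17.3 FPKM, a ratio of 6.62. The intervals of these 2 ratios overlapped, so their order is not fixed by the counts.

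HIST2H2BE, an H2B gene on chromosome 1, was low in both lines. Its deposited model is long, ending 1728 bases past the stem-loop, so its low FPKM rested on 85 fragments in untreated and 194 in DAC-treated MDA-MB-231. The FPKM were 0.988 and 2.27, a ratio of 2.30 (1.77 to 3.0). In HMLER it was listed at 1.06 and 4.12 FPKM, a ratio of 3.90. HIST1H2BD had 2 transcripts in the table. The longer one (NM_138720) went from 4.69 to 9.77 FPKM, a ratio of 2.08, while the shorter one (NM_021063), which stops near the stem-loop, went from 7.15 to 6.25 FPKM, a ratio of 0.874. The longer and the shorter form thus moved in opposite directions in these 2 libraries, with overlapping bounds. Both together went from 11.84 to 16.02 FPKM, a ratio of 1.35, so the call of HIST1H2BD rests on the transcript kept. In HMLER both transcripts were listed, with ratios of 3.69 for the longer and 3.47 for the shorter one.

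The other H2B genes at 1 FPKM changed less. HIST1H2BO went from 3.66 to 4.31 FPKM (41 and 48 fragments) and HIST1H2BN from 1.34 to 2.02 FPKM (14 and 21 fragments), and both were listed in HMLER, with ratios of 2.79 and 4.22. HIST2H2BA, a pseudogene symbol, had 2.19 and 1.97 FPKM and was not listed. No H2B gene was called lower at this level. With no filter on level, HIST1H2BB (4 and 1 fragments) and HIST1H2BM (8 and 1) also had ratios below 0.5. HIST1H2BF and HIST2H2BC went the other way, with 0 and 1 fragments each.

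HIST1H4H (NM_003543) was the H4 gene that rose. It went from 5.79 to 14.4 FPKM in MDA-MB-231, or from 42 to 104 fragments, a ratio of 2.49 (1.73 to 3.66). In HMLER it had the largest ratio of all members listed, 22.0, from 1.51 to 33.1 FPKM. Untreated HMLER thus had less HIST1H4H than untreated MDA-MB-231 in FPKM, and treated HMLER more. The tables of the 2 lines came from separate runs, so levels between lines are not tested.

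HIST1H4A, HIST1H4B and HIST1H4C, H4 genes near the start of the HIST1 cluster, moved the other way. HIST1H4A went from 27 to 9 fragments, a ratio of 0.335 (0.139 to 0.735). HIST1H4B went from 15 to 4 fragments, a ratio of 0.268 (0.0648 to 0.842). HIST1H4C went from 27 to 6 fragments, a ratio of 0.224 (0.0755 to 0.553). All 3 had between 2.29 and 3.76 FPKM in untreated cells, and none was listed in HMLER. HIST4H4 had 17 fragments in each library and was listed in HMLER at 0.522 and 2.06 FPKM, a ratio of 3.95. The H4 sum of 14 genes went from 17.7 to 19.1 FPKM, a ratio of 1.08, and without HIST1H4H the ratio was 0.394. The H4 sum thus hid a rise of 1 gene and a fall of others.

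Of the sums by type, that of H2B changed most. The 20 H2B genes went from 103.2 to 217.5 FPKM, a ratio of 2.11, and of 3.19 without HIST1H2BK. Most of the rise lay in HIST1H2BK, HIST1H2BJ and HIST1H2BC. The H1 sum went from 107.7 to 87.5 FPKM (0.812), of which HIST1H1C made up 97.8% in untreated cells. The H2A sum went from 31.4 to 29.2 FPKM (0.929) and the H3 sum from 7.47 to 6.41 FPKM (0.858). All 70 members together went from 267.5 to 359.7 FPKM, a ratio of 1.34. H2B was the type with a sum past 2-fold, and H1, H2A and H3 stayed below their untreated sums. The summed FPKM of the whole table had a ratio of 0.815, close to that of the H1 sum.

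**Figure D2:**
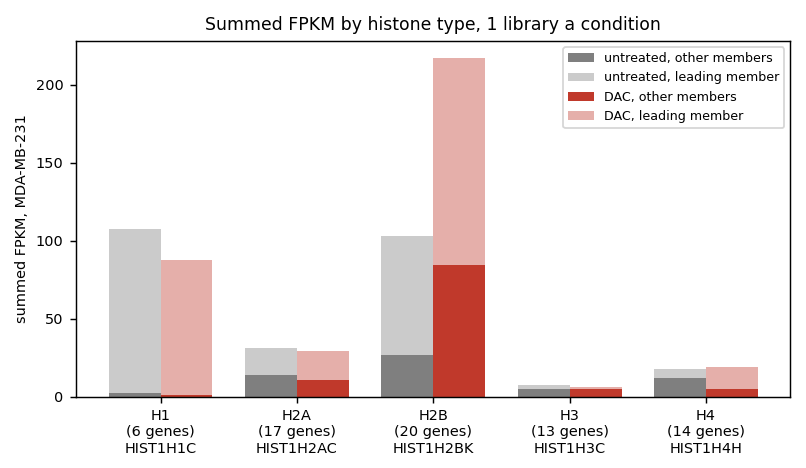
Summed FPKM of the members of each histone type in the 2 MDA-MB-231 libraries, as stacked bars from 0. Pale parts are the member with the largest summed FPKM, named under the axis, and solid parts the others. The H2B bar grows from 103.2 to 217.5 FPKM, and the solid part of the H4 bar shrinks from 11.96 to 4.71 FPKM.

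HIST1H1C, the leading H1 gene, was the most expressed member in untreated MDA-MB-231. It had 105.3 FPKM untreated and 86.2 FPKM after DAC, from 2370 and 1928 fragments, a ratio of 0.819 (0.771 to 0.870). It was not listed in HMLER. HIST1H1E, also an H1 gene, went from 2.42 to 1.18 FPKM (60 and 29 fragments), a ratio of 0.486 (0.301 to 0.770), just past the threshold. It was no longer past it after division by the median ratio (0.536) or on FPKM + 1 (0.636). In HMLER it was listed the other way, at 0.373 and 1.01 FPKM, a ratio of 2.70.

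Among the H2A genes, HIST1H2AC led, with 17.6 and 18.7 FPKM (257 and 271 fragments), a ratio of 1.06 (0.891 to 1.26). In HMLER the same gene was listed at 11.5 and 29.0 FPKM, a ratio of 2.53. HIST1H2AG had 48 and 64 fragments, a ratio of 1.34 (0.909 to 1.99), and was listed in HMLER with a ratio of 2.82. HIST1H2AM had 51 and 30 fragments, a ratio of 0.592 (0.364 to 0.947), and was not listed. HIST2H2AC fell from 23 to 4 fragments, a ratio of 0.175 (0.0440 to 0.512), and HIST1H2AH had 12 and 4 fragments, a ratio of 0.335 (0.0789 to 1.11), an interval that includes 1. HIST1H2AI had 7 and 12 fragments and HIST1H2AK had 4 and 4, and both were listed in HMLER, with ratios of 5.27 and 2.23.

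The H3 genes were low in MDA-MB-231 and none was called. HIST1H3C had 27 and 20 fragments, HIST1H3B 23 and 21, and HIST1H3H 25 and 17, each with an interval of its ratio that includes 1. The H3 genes listed in HMLER were others. HIST1H3D was listed there at 0.515 and 4.75 FPKM (ratio 9.23), HIST1H3E at 1.64 and 5.46 FPKM (3.34) and HIST1H3G at 1.11 and 2.53 FPKM (2.28). In MDA-MB-231, HIST1H3E had 0 and 0 fragments and HIST1H3G 0 and 6. HIST1H3D shares its locus in the table with the H2A gene HIST1H2AD, and the locus had 0 fragments in untreated cells and 2 after DAC.

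In HMLER, 18 of the 70 members were listed as higher after DAC, or 25.7%, against 7.85% of all 23617 symbols of the MDA-MB-231 table. Of the 24 members at 1 FPKM in MDA-MB-231, 13 were listed, or 54.2%, against 10.9% of all symbols at that level. By type, the 18 were 8 H2B, 4 H2A, 3 H3, 2 H4 and 1 H1 genes. Their HMLER ratios ran from 2.23 to 22.0 with a median of 3.68, beside a median of 3.61 over the 1854 symbols of the table. Among listed genes, the size of the rise was thus alike for histone genes and for symbols in general. The share of histone genes that were listed was larger. HIST1H2BG, an H2B gene, had no fragment in either MDA-MB-231 library and was listed in HMLER at 1.47 and 11.7 FPKM, a ratio of 7.98.

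All 5 members higher in MDA-MB-231 were listed in HMLER, so 20.8% of the 24 members were higher in both lines, against 3.80% of the 12396 symbols. Of the 13 members listed in HMLER that reached 1 FPKM in MDA-MB-231, 5 were higher and 1 (HIST1H1E) was lower, against 35.0% and 3.34% of all listed symbols at that level. The share of listed members that were higher, 5 of 13, was thus near that of listed symbols in general. Of the 11 members at 1 FPKM that were not listed, 0 were higher and 5 were lower, against 8.66% and 6.16% of all such symbols. No test is given for these counts, since MDA-MB-231 has 1 library per condition.

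**Figure D3:**
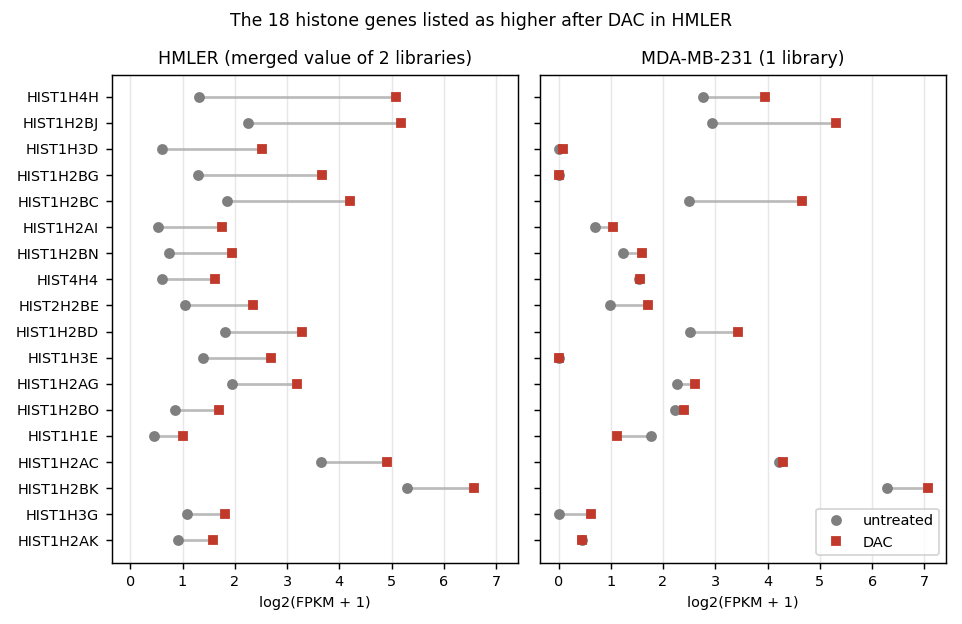
The 18 histone genes listed as higher after DAC in HMLER, ordered by their HMLER ratio, as log2(FPKM + 1). Circles are untreated and squares DAC values, in HMLER (left, 1 merged value per condition) and in MDA-MB-231 (right, 1 library per condition). For HIST1H2BD the left side shows the shorter transcript (NM_021063) and the right side the longer one (NM_138720). HIST1H4H, HIST1H2BJ and HIST1H2BC move far to the right in both lines, and HIST1H1E moves to the left in MDA-MB-231.

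With no filter on level, 16 of the 48 members above 0 in MDA-MB-231 had a ratio above 2, against 28.9% of 18596 symbols, and 10 of the 16 were at 0 in untreated cells. Another 13 of the 48 had a ratio below 0.5, against 6.81% of symbols, and 4 of the 13 were at 0 after DAC. The calls among members under 1 FPKM rest on 9 fragments or fewer per library.

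Back-to-back H2A and H2B genes under 500 bases apart were sought among members with 1 transcript, a locus of their own (or HIST1H2BK) and a strand in GENCODE. This gave 10 pairs, with 223 to 346 bases between their starts. Members outside these limits were not paired, such as HIST1H2BG, which had no strand there, so the 10 are not all such pairs. In 7 pairs both genes had a fragment in both libraries, and in 6 of these the H2B gene had the higher ratio. HIST1H2BC had 46 and 241 fragments while its partner HIST1H2AC had 257 and 271. HIST1H2BJ had 79 and 453 fragments while HIST1H2AG had 48 and 64. HIST2H2BE rose from 85 to 194 fragments while HIST2H2AC fell from 23 to 4. HIST1H2BK had a ratio of 1.73 and its partner HIST1H2AH a ratio of 0.335. In these 4 pairs, whose shared stretches are printed above, the counting intervals of the H2B and the H2A ratio did not overlap. The 4 were chosen for the fragments their H2B gene gained, which favors such a gap, so it is no support for a difference between partners. The Cuffdiff bounds of the 2 libraries overlapped for each of these genes. HIST1H2BL and HIST1H2AI were the exception, with 3 and 3 fragments for the H2B gene and 7 and 12 for the H2A gene. All 10 stretches held CCAAT and 7 held TATAAA. In HMLER both partners of 3 pairs were listed, only the H2B gene of another 3, only the H2A gene of 1, and neither gene of 3.

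**Figure D4:**
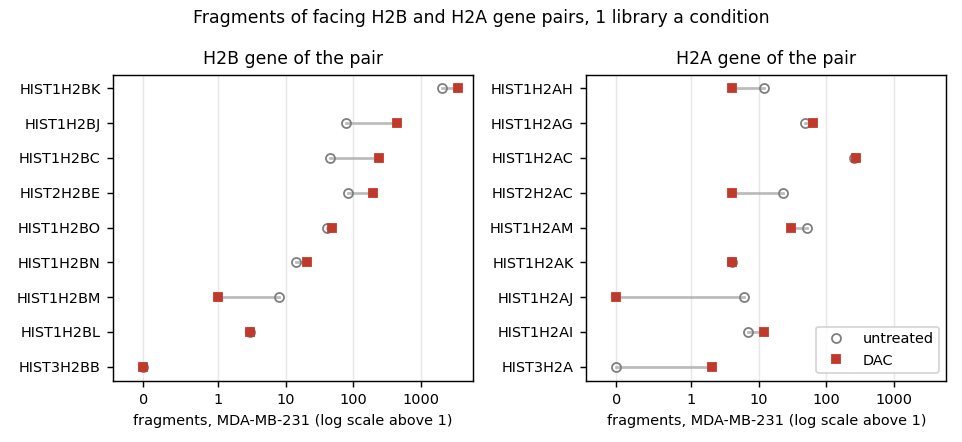
Fragments in MDA-MB-231 of the H2B gene (left) and the H2A gene (right) of back-to-back pairs, on a log scale above 1. Shown are those of the 10 pairs found that had a fragment in either library, 1 pair per row. Circles are the untreated and squares the DAC library. HIST1H2BJ and HIST1H2BC move to the right while their partners move little, and HIST2H2AC moves to the left while HIST2H2BE moves to the right.

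The stretch of the HIST1 cluster from HIST1H2BE to HIST1H2BI nearly lacked fragments in MDA-MB-231. This stretch was chosen after its values were seen. It runs over 89.6 kb between positions 26184024 and 26273640 of chromosome 6 and holds 16 members and no other symbol of the table. Its members together had 1 fragment in untreated cells and 11 after DAC. HIST1H3G gave 6 of the 11, HIST1H3D and HIST1H2AD shared 2, and HIST1H2BE, HIST1H2BF and HIST1H3F gave 1 each, while 10 members were at 0 in both libraries. The other 40 HIST1 members had 5502 fragments in untreated cells and 7208 after DAC. Most of these came from HIST1H1C (2370 and 1928) and HIST1H2BK (2078 and 3579). The median of the 40 was 0.731 FPKM untreated and 0.407 after DAC, and 8 of them were at 0 in both libraries. Low values were not confined to the stretch. The neighbors HIST1H2AL, HIST1H1B, HIST1H3I and HIST1H4L held no fragment except 1 in HIST1H1B after DAC. The members on either side were expressed, HIST1H2BD with 208 fragments over its transcripts in untreated cells and HIST1H4H with 42. In HMLER, 4 members of the stretch were listed (HIST1H2BG, HIST1H3D, HIST1H3E and HIST1H3G), with untreated values of 0.515 to 1.64 FPKM.

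**Figure D5:**
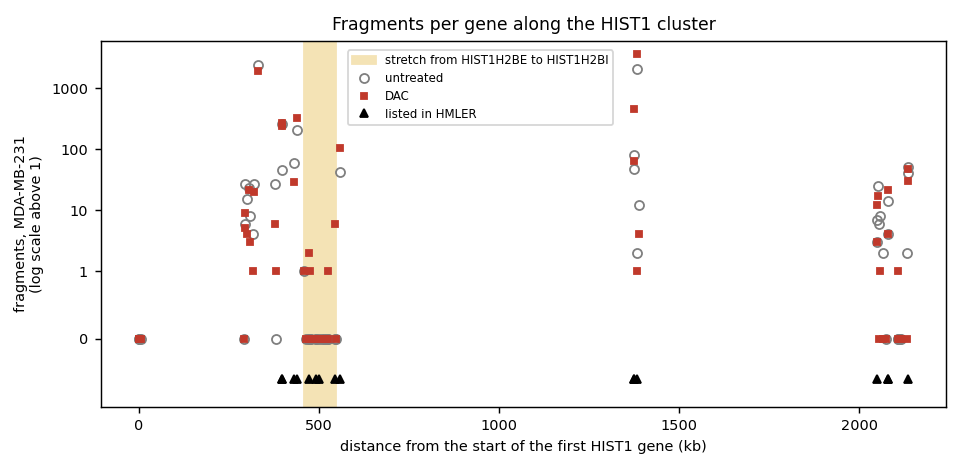
Fragments of each of the 56 HIST1 members in MDA-MB-231 against the distance from the start of the first member in kb, on a log scale above 1. Circles are the untreated library, squares the DAC library, triangles below mark members listed in HMLER, and the shaded band is the stretch from HIST1H2BE to HIST1H2BI. The band holds 1 fragment in untreated cells and 11 after DAC, with expressed genes on both of its sides.

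Members differ in the length of their annotated gene, and the split given here was made after the calls were known. In GENCODE, 16 members span over 1000 bases, far longer than a histone coding sequence with its stem-loop. Of these 16, 9 reached 1 FPKM, 5 were called higher, 0 were called lower and 9 were listed in HMLER. Of the 49 members with a shorter span, 15 reached 1 FPKM, 0 were called higher, 6 were called lower and 8 were listed in HMLER. The shares over all symbols at 1 FPKM were 11.5% higher and 5.86% lower. HIST1H2BC spans 37610 bases in GENCODE and HIST1H2BJ 6899, although the deposited models of both end 5 bases past the stem-loop. The fragments counted for these genes therefore lie in the short model. HIST1H2BK is short in GENCODE (495 bases) and long in the deposited model.

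The 9 members known to give polyadenylated mRNA, a list written from general knowledge but with earlier results of these data known, held 83.1% of the summed FPKM of all members in untreated cells and 91.0% after DAC. HIST1H1C and HIST1H2BK alone held 68.0% and 61.0%. HIST1H1C, HIST1H2AC, HIST1H2BC, HIST1H2BD, HIST1H2BJ, HIST1H2BK, HIST2H2AA3, HIST2H2BE and HIST1H4H together went from 222.5 to 327.4 FPKM, a ratio of 1.47. Of these 9, 8 reached 1 FPKM, 5 were called higher and 0 lower, and 7 were listed in HMLER. The other 61 members together went from 45.1 to 32.3 FPKM, a ratio of 0.716. Of these 61, 16 reached 1 FPKM, 0 were called higher, 6 were called lower and 11 were listed in HMLER. Over all symbols at 1 FPKM, 11.5% were higher and 5.86% lower. Since the list was written with results known, these counts describe it and support nothing.

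The testis histones HIST1H1T, HIST1H2AA, HIST1H2BA and HIST3H3, which replace or join the usual histones in male germ cells, stayed at the floor. Their summed FPKM was 0 untreated and 0.131 after DAC. HIST1H1T and HIST3H3 had 1 fragment each after DAC, and the others had none.

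Most replacement variants are made also outside S phase from polyadenylated mRNA and lie outside the clusters. In MDA-MB-231, the replacement variants had a lower sum after DAC. The 19 of 20 that were in the table went from 1413 to 866.2 FPKM, a ratio of 0.613. Of these, 11 reached 1 FPKM. Among the 11, 1 was called higher and 1 lower, against 11.5% and 5.86% of all symbols at 1 FPKM. H1F0, the replacement H1 of resting cells, went from 132.3 to 36.7 FPKM, a ratio of 0.277 with bounds that do not overlap. H2AFZ, the variant at gene starts, went from 504.7 to 302.2 FPKM, H2AFX, which marks DNA breaks, from 234.0 to 159.5 FPKM, and H3F3B from 191.9 to 109.5 FPKM. H3F3A, which codes for the same H3.3 protein as H3F3B and has near-identical copies in the genome, went from 1.21 to 4.86 FPKM. The H2B sum of the clusters thus rose while the sum of the replacement variants fell. The H1, H2A and H3 sums of the clusters were also below their untreated values, with ratios of 0.812, 0.929 and 0.858. The H2B variants of the list, H2BFM and H2BFWT, were at 0 in untreated cells. The variants that made up the sum were therefore of other types.

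Genes that make or degrade histone mRNA went from a sum of 474.6 to 429.9 FPKM in MDA-MB-231, a ratio of 0.906. Of 18 such genes, for transcription, 3′ end processing or decay, 1 was called higher and 0 lower, against 11.5% and 5.86% of all symbols. That gene was POU2F1, which codes for a factor of H2B promoters, and its call came from the transcript kept, since all its transcripts together had 2.49 and 2.74 FPKM. SLBP had 81.1 and 81.3 FPKM, LSM10, a subunit of the U7 particle that helps cut histone mRNA, 63.2 and 55.4 FPKM, and SYMPK, a scaffold of the cutting complex, 54.5 and 56.9 FPKM. In HMLER, 2 of the 18 were listed as higher, against 10.9% of all symbols at 1 FPKM in MDA-MB-231. They were ZNF473 (2.29 and 5.42 FPKM) and LSM1, a decay factor (7.83 and 16.9 FPKM). Of 16 histone chaperones, which carry histones to DNA, 15 reached 1 FPKM in MDA-MB-231. In that line 0 were called higher and 0 lower, against 11.5% and 5.86% of all symbols at 1 FPKM. In HMLER, 0 of the 16 were listed, against 10.9% of all symbols at 1 FPKM in MDA-MB-231. On so few genes, these counts do not set the chaperones apart. SSRP1 had 316.6 and 249.1 FPKM, SUPT16H 111.2 and 90.8 FPKM, and NAP1L1 96.0 and 75.6 FPKM.

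A list of 20 genes held S phase genes and CDKN1A, an inhibitor of cyclin-dependent kinases. In MDA-MB-231, 1 of the 20 was called higher and 0 lower, against 11.5% and 5.86% of all symbols at 1 FPKM. Of the 20, 14 had a ratio below 1 and 6, CDKN1A included, a ratio above 1. Their summed FPKM went from 1889 to 1556, a ratio of 0.823, close to the 0.815 of the whole table. CDKN1A was the gene called, with 10.9 FPKM untreated and 35.8 after DAC and bounds that do not overlap. No other gene of the list was called. In HMLER, 3 of the 20 were listed as higher, against 10.9% of all symbols at 1 FPKM in MDA-MB-231. They were CDKN1A (75.9 and 448.7 FPKM), CDK2 (2.45 and 5.99 FPKM) and RRM2 (3.98 and 8.20 FPKM). TYMS, which makes thymidylate, went from 359.5 to 237.8 FPKM, MCM3, of the replicative helicase, from 209.9 to 191.6 FPKM, and MCM7 from 168.4 to 148.8 FPKM.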

How the data were processed

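RNA-seq libraries of untreated and DAC-treated HMLER (2 and 2 libraries) and MDA-MB-231 (1 and 1) were compared. The authors aligned reads to hg19 with TopHat2 and made the deposited FPKM for RefSeq transcripts with Cuffdiff (Galaxy). Versions are not given in the sources used here. The authors' fold changes (both tables) and p-values and q-values (HMLER) were not used.

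The members and the gene lists were chosen with earlier results of these data known. Where a symbol had several transcripts, the one with the highest FPKM over both libraries stood for it. Ratios had no pseudocount, and log2 changes used log2(FPKM + 1), which understates changes of low genes. Fragments were read back from the FPKM and the Cuffdiff bounds of transcripts of at least 300 bases. The TruSeq kit named in the labels is taken as not marking strand, so overlapping genes share reads.

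The genes named are members past 2-fold at 1 FPKM, the 3 most expressed of each type, all listed in HMLER, the testis list and, of each other list, those past 2-fold and the 3 most expressed. Others are named after their values were seen.

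Simulated data with 7907 genes, 200 of them changed 4-fold, gave 200 right calls and 0 false ones. Only genes at 5 FPKM or more in both libraries were simulated, with counting noise alone. The simulation thus checks the steps of the calculation. It does not show how reliable calls near 2-fold or at lower levels are, where all 6 members called lower lie. Alternatives were other filters, a pseudocount, summed transcripts, division by the median ratio, non-overlapping bounds and leaving out the leading member of each type. Gene positions came from GENCODE lifted to GRCh37 (65 of 70 members matched), and promoters from RefSeq (62 matched). Tools were pandas 2.3.3 and numpy 2.4.6 under Python 3.11.15, with scipy 1.17.1 for intervals and matplotlib 3.10.9 for plots.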

Additional observations from a re-analysis of the deposited data

Results flagged for a closer look

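HIST1H1E, an H1 gene, was lower after DAC in MDA-MB-231 and listed as higher in HMLER. In MDA-MB-231 its DAC/untreated FPKM ratio was 0.486 (60 and 29 fragments), and in HMLER it was listed as higher, at 0.373 and 1.01 FPKM. It was the 1 member of the 18 listed in HMLER with fewer fragments after DAC in MDA-MB-231. The fall in MDA-MB-231 was no longer past the threshold once divided by the median ratio (0.536) or on FPKM + 1 (0.636). The HMLER value of HIST1H1E after DAC was close to the lowest DAC value of the HMLER list, 1.003 FPKM. The difference between the lines was not tested, since each line has 1 value per condition.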

How the results depend on the processing

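With no filter on level, 16 members were higher and 13 members lower after DAC. With 1 FPKM required in both libraries, 2 were lower, and with 5 FPKM in at least 1 library, 0 were lower and the median log2 change was 0.85. On the ratio of FPKM + 1, 3 members were higher and 3 were higher in both lines. Asking for Cuffdiff bounds that stand apart left 0 higher, 0 lower and 0 higher in both lines, with no share over all symbols given beside them. The HMLER list of 18 became 11 with 1 FPKM in both conditions and 9 with 5 FPKM in at least 1. Without the leading member of each type, the ratio of summed FPKM was 0.522 for H1, 3.19 for H2B and 0.394 for H4. These 15 values moved, and another 34 stayed within 1.5 times the count or near the value given, division by the median ratio and summing of transcripts included. Of the 6 members lower in MDA-MB-231, HIST1H1E was lost after division by the median ratio, and HIST1H1E and HIST1H2AH on FPKM + 1. Fewer genes tested is what the filters do by construction, and for the rest the cause was not tested. No paired analysis was possible because 1 merged value stands for each HMLER condition and 1 library for each of MDA-MB-231. Leaving out a library could not be run for the same reason. Depth limits the members under 1 FPKM, at 9 fragments or fewer.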
